A study of Mus musculus with 4 samples.

Results

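The 59 genes described here encode the subunits, activators and assembly factors of the proteasome and the subunits of the chaperonin CCT. They were chosen by symbol alone, as the protein-coding genes of the mouse RefSeq annotation named Psma, Psmb, Psmc, Psmd, Psme or Psmg with a digit, plus Cct2 to Cct8 and Tcp1, out of 21887 protein-coding genes on the placed chromosomes. This rule uses no measured value, though it was set with earlier results of these data known. The label fits 57 of them by known function: Psmc3ip encodes a meiotic recombination factor and Psme3ip1 a protein that interacts with an activator, and neither is a subunit. In what follows a gene has a gene-end peak when the summit of a Pcbp1 peak lay within 1 kb of either annotated end of the gene. All coordinates are of the build GRCm38.

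Pcbp1, a poly-C-binding protein of RNA and DNA, was mapped by ChIP-seq, the sequencing of DNA from chromatin precipitated with an antibody, in the established mouse embryonic stem cell line E14 Tg2a. Naive cells were kept for 3 passages without serum in N2B27 medium with LIF, the MEK inhibitor PD0325901 (1 uM) and the GSK3 inhibitor CHIR99021 (3 uM). Primed epiblast-like cells (EpiLC) were made from such cells in 48 hours on fibronectin with bFGF (12 ng/ml), Activin A (20 ng/ml) and 1% KOSR, a serum replacement. Each state had 1 ChIP library and 1 input library, so the design has no replicate and the states were not compared by a test. Peak lists hold no expression values, and the labelled state of the cells was not checked against marker genes. There were 12132 peaks in the Naive list, with a median summit pileup of 24 fragments, and 3494 in the EpiLC list, with a median of 45. Pcbp1 may still have bound a gene that a list leaves out.

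The proteasome degrades proteins tagged with ubiquitin. Its barrel, the 20S core, is built of alpha (Psma) and beta (Psmb) rings, the latter holding the proteolytic sites, and its 19S cap unfolds substrates with an ATPase ring (Psmc) carried by non-ATPase subunits (Psmd). Activators (Psme) open the barrel in place of the cap, and assembly chaperones (Psmg and some Psmd proteins) build it. CCT, also called TRiC, is a double-ring chamber that folds actin, tubulin and other new proteins with ATP. Cells in culture need both machines to divide, and pluripotent stem cells are known for high proteasome and CCT activity.

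Most of these genes carried a Pcbp1 peak in naive cells and few did in EpiLC. A gene-end peak was found at 38 of the 59 genes in the Naive list (64.4%), where 19.3% of all protein-coding genes had one, and at 6 in the EpiLC list (10.17%), against 5.61% of all genes. All 6 were among the 38, and the share of all genes with a peak in both lists was 4.09%. That left 32 members in the Naive list alone, 0 in the EpiLC list alone and 21 in neither. Among all 21887 protein-coding genes, 4230 had a Naive peak, 1228 an EpiLC peak, 895 both and 17324 neither. Most genes with a Naive peak thus had none in EpiLC, among members and at large alike. The Naive list is the longer one: cut to its 3494 peaks of highest statistical significance, not of highest fold, it held 9 members (15.3%), against 5.44% of all genes. The peaks were of ordinary strength: the median fold enrichment of the strongest peak per gene was 4.596 for the members and 4.58 for all genes with a Naive gene-end peak, and 3.45 and 3.34 in EpiLC. Fold enrichment is the authors' ratio of the summit to the local background their peak caller assumed.

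The chaperonin accounted for most of the EpiLC peaks. All 9 CCT genes had a Naive peak (median fold 5.10), and 4 of them an EpiLC peak (median 3.15). Of the 48 proteasome subunit, activator and assembly genes, 27 had a Naive peak (56.3%) and 2 had an EpiLC peak (4.17%), which is near the EpiLC background of all genes. By role, Naive peaks were found at 8 of 14 constitutive core genes, 4 of 6 ATPase genes, 7 of 11 non-ATPase genes, 5 of 7 assembly chaperone genes, 2 of 5 activator genes and 1 of 5 tissue-specific core genes. With so few genes in each role, these shares are descriptions only. All 9 CCT genes stayed in the Naive list at a −log10 q of at least 5, where 15.4% of all genes did. At a fold of at least 5 it was 5 of 9, against 6.83% of all genes, and in the shortened list 3 of 9, against 5.44%. In both, Cct6a counted only through a peak of 5.795 beyond the far end of the gene, also at Sumf2. The peak at its start had 4.996.

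**Figure D1:**
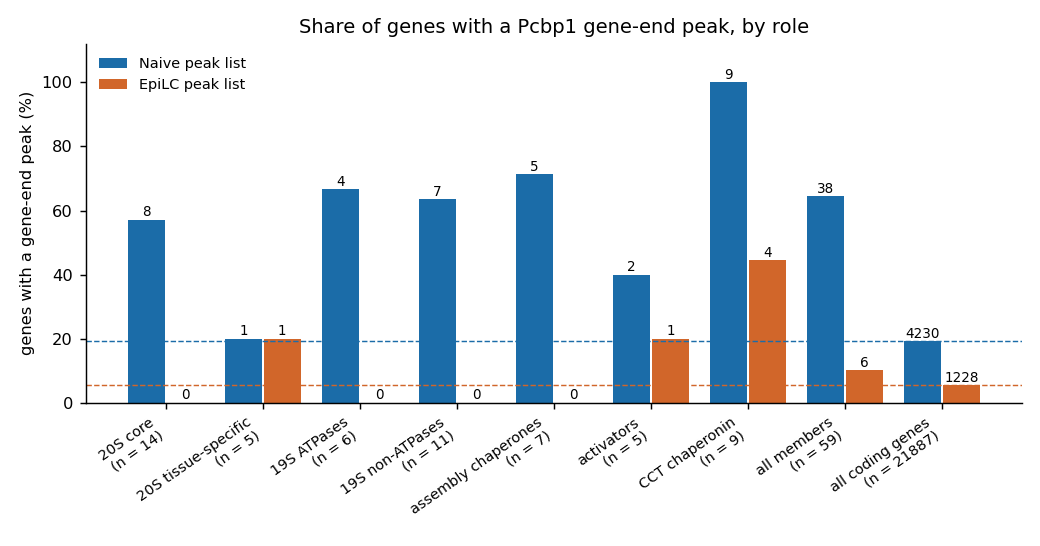
Percentage of genes with a Pcbp1 gene-end peak in the Naive (blue) and EpiLC (orange) lists, by role, with the number of genes with a peak above each bar and the shares of all protein-coding genes as dashed lines. The chaperonin stands at 9 of 9 of the Naive list and 4 of 9 of the EpiLC list, while the constitutive core, both kinds of 19S gene and the assembly chaperones have 0 in EpiLC.

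The promoters of 7 members are printed from the RefSeq promoter table (GRCm38.p6) as the 250 bases before the outermost listed transcript start, on the gene's own strand. The first 5 belong to the genes with an EpiLC peak that have an entry. Psmg3, with a Naive peak alone, and Psmb4, with none, are shown for contrast. Capitals mark runs of at least 4 C or 4 G, the latter being C runs on the other strand, because the precipitated protein binds poly-C.

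Tcp1 (chr17:12916079-12916328, + strand): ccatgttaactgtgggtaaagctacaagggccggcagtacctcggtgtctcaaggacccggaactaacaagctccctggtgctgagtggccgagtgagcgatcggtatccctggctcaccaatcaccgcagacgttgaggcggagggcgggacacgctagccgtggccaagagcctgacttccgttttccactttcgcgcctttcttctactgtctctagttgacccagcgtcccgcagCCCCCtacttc

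Cct2 (chr10:117063853-117064102, - strand): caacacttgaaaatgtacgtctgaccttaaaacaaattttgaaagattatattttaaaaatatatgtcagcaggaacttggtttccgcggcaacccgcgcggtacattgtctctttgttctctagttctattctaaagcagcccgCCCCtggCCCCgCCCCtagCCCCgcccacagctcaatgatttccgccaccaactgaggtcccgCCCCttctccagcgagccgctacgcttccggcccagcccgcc

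Cct5 (chr15:31601847-31602096, - strand): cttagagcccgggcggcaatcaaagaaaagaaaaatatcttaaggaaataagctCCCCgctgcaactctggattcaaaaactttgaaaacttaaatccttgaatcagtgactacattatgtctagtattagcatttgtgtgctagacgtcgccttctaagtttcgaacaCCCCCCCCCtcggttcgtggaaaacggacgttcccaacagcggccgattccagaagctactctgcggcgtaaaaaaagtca

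Cct6a (chr5:129787106-129787355, + strand): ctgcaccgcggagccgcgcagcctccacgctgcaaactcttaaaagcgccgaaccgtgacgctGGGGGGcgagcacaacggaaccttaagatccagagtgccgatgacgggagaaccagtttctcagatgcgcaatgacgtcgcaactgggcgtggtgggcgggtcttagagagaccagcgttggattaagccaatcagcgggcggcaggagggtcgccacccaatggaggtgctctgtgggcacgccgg

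Psme2 (chr14:55591102-55591351, - strand): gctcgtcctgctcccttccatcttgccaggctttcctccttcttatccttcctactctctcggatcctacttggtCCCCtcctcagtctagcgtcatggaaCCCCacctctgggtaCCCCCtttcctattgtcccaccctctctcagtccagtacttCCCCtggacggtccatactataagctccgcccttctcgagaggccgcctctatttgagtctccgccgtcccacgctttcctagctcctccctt

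Psmg3 (chr5:139826895-139827144, - strand): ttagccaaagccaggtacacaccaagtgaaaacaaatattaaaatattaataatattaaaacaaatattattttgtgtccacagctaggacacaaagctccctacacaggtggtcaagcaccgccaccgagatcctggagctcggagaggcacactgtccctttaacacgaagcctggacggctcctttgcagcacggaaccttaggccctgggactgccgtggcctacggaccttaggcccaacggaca

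Psmb4 (chr3:94886959-94887208, - strand): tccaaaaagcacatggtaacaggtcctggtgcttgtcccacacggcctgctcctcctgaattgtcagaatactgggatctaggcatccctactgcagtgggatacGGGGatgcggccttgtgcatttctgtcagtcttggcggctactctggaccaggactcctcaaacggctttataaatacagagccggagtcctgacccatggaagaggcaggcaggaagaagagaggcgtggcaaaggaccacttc

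The number of runs did not follow the peaks in these examples. They were chosen after the values were seen, so nothing about C runs can be concluded from them. Cct2 had 5 runs, all of C, and Psme2 had 4, while Cct5 had 2, Tcp1 and Cct6a had 1 each and Psmg3 had 0 despite its Naive peak. Psmb4, without a peak, had 1. Over all member windows, 30 of the 35 at genes with a Naive peak held a run (85.7%), as did 19 of the 21 at genes without one (90.5%). Among the 21263 windows of all protein-coding genes 85.3% did. In the longer 300-base windows used for motifs below, CCCC on either strand, the same feature, was in 91.4% at members with a Naive peak. At members without one it was in 90.5%. It was in 88.2% of all windows and in 94.1% at all protein-coding genes with a Naive peak. Which members had the higher share thus depended on the window. The Naive summit of Cct5 lay at base 75 of its printed sequence, the EpiLC summit of Cct6a at base 147 and the Naive summit of Psmg3 at base 194. The other summits lay outside the printed bases.

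The CCT ring is made of 8 kinds of subunit, one of which has a pair of genes, Cct6a and Cct6b, the latter mainly expressed in testis. Cct5 (chromosome 15, 31590800 to 31601846) had the highest fold of all members in Naive, 7.25 (95% counting interval 5.14 to 9.96) from a summit pileup of 36 fragments. In EpiLC its fold was 2.71 (2.01 to 3.57) from 48 fragments. The Naive value was the higher and the intervals did not overlap. Both summits lay before the outer start of the gene, 176 and 256 bp away, and also within 1 kb of the end of Atpsckmt, a neighbouring gene of a mitochondrial methyltransferase. A second Naive peak of 4.52 (2.91 to 6.74) lay inside the gene near its inner start.

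Tcp1, the founding subunit (chromosome 17, 12916329 to 12925067), had 6.88 (4.90 to 9.42) in Naive from 37 fragments, the highest pileup of the Naive member peaks. In EpiLC it had 3.58 (2.82 to 4.49) from 74 fragments. The intervals did not overlap, with Naive the higher. The summits lay 281 and 357 bp inside the gene, with no other gene end within 1 kb. A weak second Naive peak of 2.92 (1.86 to 4.40) lay 816 bp before the start.

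Cct2 (chromosome 10, 117050997 to 117063852) had nearly equal folds, 5.27 (3.51 to 7.63) in Naive from 26 fragments and 4.90 (3.83 to 6.18) in EpiLC from 69. The latter was the highest EpiLC fold of the members, and the intervals overlapped over most of their length. The summits lay 9 bp apart, between the starts that the table lists for this gene, and no other gene end was within 1 kb.

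Cct6a (chromosome 5, 129787356 to 129846443) had a peak at its start of 4.996 (3.27 to 7.34) in Naive, from 24 fragments, and 2.35 (1.74 to 3.12) in EpiLC, from 46. The intervals did not overlap, by a narrow margin. The Naive summit lay 282 bp inside the gene and the EpiLC summit 104 bp before it, 386 bp apart, and both were also within 1 kb of an end of Psph, the phosphoserine phosphatase gene. At the far end of the annotated gene lay another Naive peak of 5.79 (3.92 to 8.29), 594 bp beyond it and also at Sumf2, which is the value plotted for Cct6a in the plot of folds by gene.

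The other 5 chaperonin genes had Naive peaks alone, with folds from 4.23 to 5.10. They were Cct4 (chromosome 11, 22990593 to 23003336; 5.10, 3.45 to 7.30, from 28 fragments), Cct6b (4.65), Cct8 (4.53), Cct7 (4.48) and Cct3 (4.23). Those of Cct6b, Cct7 and Cct3 were also within 1 kb of another protein-coding gene, Zfp830, Pradc1 and Tsacc in that order. The Cct8 summit lay 492 bp inside the gene, the farthest downstream of the member summits within 1 kb of a listed start, and within 1 kb of an end of the lncRNA gene B130034C11Rik. Cct3 also had a Naive peak in the gene body, 9054 bp from its start, with a fold of 4.76.

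Among alpha subunits of the constitutive core, Psma2 had the highest Naive fold, 5.595 (3.76 to 8.05) from 27 fragments (chromosome 13, 14613242 to 14625673), 124 bp before its start and also at Mrpl32, a mitochondrial ribosomal protein gene. Psma4 had 4.01 (2.52 to 6.09) and Psma5 3.40 (2.17 to 5.12). The Psma3 peak of 3.99 lay 801 bp before the annotated gene but 6141 bp before the transcript start in the promoter table, which lies well inside the gene model, and within 1 kb of a lysine tRNA gene, n-TKctt17. Psma1, Psma6 and Psma7 had no gene-end peak.

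Among beta subunits, Psmb7, which carries the trypsin-like activity, had 4.92 (3.22 to 7.23). Psmb5, the chymotrypsin-like subunit and the main target of bortezomib, had 4.08 (2.57 to 6.20), Psmb2 3.96 and Psmb3 3.27 (2.11 to 4.88). Psmb1, Psmb4 and Psmb6, the caspase-like subunit, had none. No core gene of the constitutive set had an EpiLC peak. With 5.61% of all protein-coding genes having one, an absence at 14 genes says little.

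The immunoproteasome genes Psmb8, Psmb9 and Psmb10, which interferon induces, and the thymus gene Psmb11 lacked a gene-end peak in both lists. So did 17324 of the 21887 protein-coding genes. Psmb10 (chromosome 8, 105935728 to 105938392) held a peak inside the gene in both lists, with folds of 5.09 in Naive and 2.54 in EpiLC, 1137 and 1196 bp from the nearer end and so just beyond the limit. Psma8, the alpha subunit of the testis proteasome (chromosome 18, 14706135 to 14762301), was the tissue-specific gene with gene-end peaks. It had 5.79 (3.92 to 8.29) in Naive from 28 fragments and 3.32 (2.36 to 4.54) in EpiLC from 37. The intervals overlapped and the summits were 130 bp apart. No other gene end was within 1 kb of them. These values show binding signal and say nothing of expression.

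Among ATPases of the 19S cap, Psmc3 (chromosome 2, 91054016 to 91059438) had 5.06 (3.47 to 7.15) from 30 fragments, Psmc5 4.75 (3.14 to 6.93), Psmc4 4.13 and Psmc1 4.01. The Psmc5 peak lay 591 bp before the gene and a weaker one of 3.22 lay 150 bp before it, both within 1 kb of Ftsj3, an rRNA processing gene. Psmc2 and Psmc6 had no gene-end peak.

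Among non-ATPase genes, Psmd1, the gene of a large scaffold subunit (chromosome 1, 86064619 to 86139295), had 5.27 (3.56 to 7.54) from 28 fragments and Psmd3 5.06 (3.51 to 7.08) from 32. Psmd13, at a peak shared with Sirt3, had 4.596, Psmd12 4.37 and Psmd14, the deubiquitinase of the cap, 4.19 (2.63 to 6.36). The ubiquitin receptor gene Psmd4 had 3.42 and Psmd2, the other large scaffold, 2.99 (1.88 to 4.54), the lowest of the subunit genes by their strongest Naive peak. Psmd6, Psmd7, Psmd8 and Psmd11 had none. By the strongest Naive peak per gene, the lowest value of all members was 2.60 (1.65 to 3.91) at Psmc3ip, which is not a subunit.

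Assembly chaperone genes had Naive peaks at Psmd5 (chromosome 2, 34852087 to 34870965; 5.66, 3.83 to 8.09, from 28 fragments), Psmg3 (4.87, 3.19 to 7.15), Psmg1 (4.85), Psmg2 (4.13) and Psmd9 (3.99), and none at Psmd10 or Psmg4. Of the activators, Psme3, the nuclear PA28 gamma gene (chromosome 11, 101316213 to 101323537), had 5.15 (3.53 to 7.28) from 30 fragments in Naive alone. Psme2, the PA28 beta gene (chromosome 14, 55587440 to 55591101), had 5.44 (3.70 to 7.73) in Naive from 29 fragments and 4.09 (3.22 to 5.13) in EpiLC from 73. The intervals overlapped, and the summits lay 36 bp apart, 309 and 345 bp before the gene. That position is also within 1 kb of Rnf31, whose product builds linear ubiquitin chains. A second, weaker Naive peak of 3.82 (2.41 to 5.81) lay 414 bp inside Psme2, with no other gene end within 1 kb. The partner gene of Psme2, Psme1, which encodes PA28 alpha and lies less than 10 kb away, had no gene-end peak, nor did Psme4 or Psme2b.

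The folds ranked the members only weakly. In Naive the strongest peak per gene ran from 2.60 to 7.25, and in the order of folds all 37 pairs of neighbours had overlapping counting intervals. Against the highest, Cct5, the intervals of 32 members overlapped and those of 5 lay below. Summit pileups of the 43 Naive member peaks ran from 19 to 37 fragments, around a median of 23 that was close to the 24 of all gene-end peaks.

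**Figure D2:**
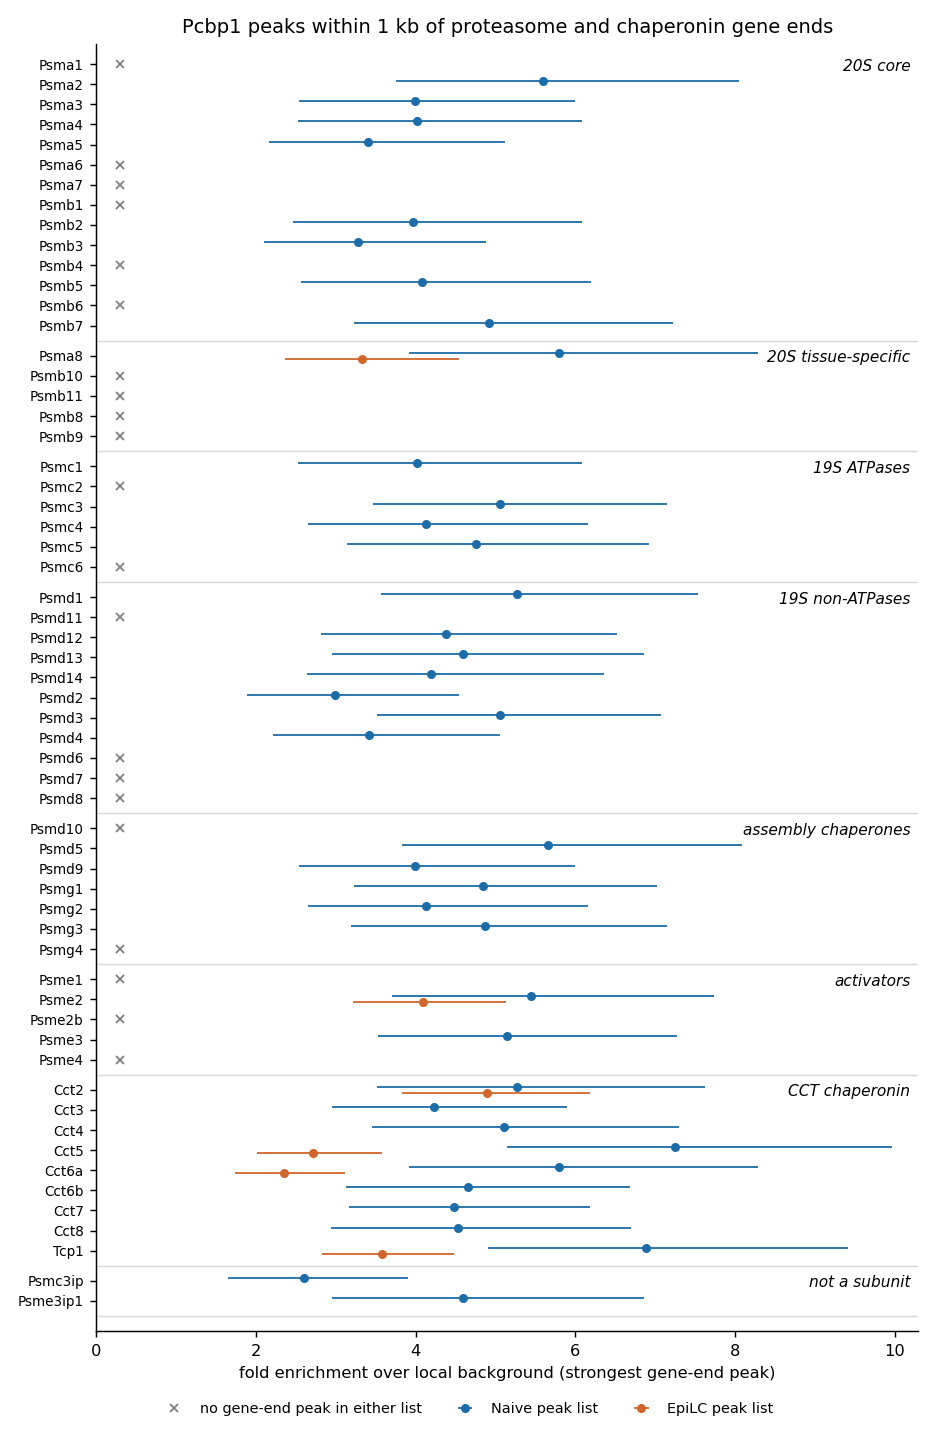
Fold enrichment of the strongest Pcbp1 gene-end peak at each of the 59 genes, grouped by role, with 95% Poisson intervals from the summit pileup (Naive in blue, EpiLC in orange; crosses mark genes without a gene-end peak). Orange points appear at 6 genes, 4 of them chaperonin genes, and most blue intervals overlap each other.

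The direction of the difference between states depended on which background was used. At the 6 members with peaks in both lists, the fold over the local background was higher in Naive in 6 of 6, with a median ratio of 1.83, and the intervals were apart at 3, Cct5, Tcp1 and Cct6a. Over the 838 genes at large with overlapping gene-end peaks, Naive was higher at 748 and the median ratio was 1.65. The genome-wide background, taken as the lowest background in a list, was 4.004 fragments in Naive and 7.43 in EpiLC. When each pileup was divided by this value, the median ratio at the 6 members became 0.948, Naive was the higher at 2 of 6, Cct5 and Psma8, and the intervals were apart at 0 of 6. Over the 838 genes the median ratio by this measure was 1.09, with Naive higher at 515.

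The local background moved with this result. It stood at 1.00 to 1.13 times the genome-wide value under the 6 Naive peaks, and at 1.41 to 2.68 times under the 6 EpiLC peaks. The highest was at Tcp1, whose pileup was 9.24 times the genome-wide background in Naive (6.51 to 12.7) and 9.96 times in EpiLC (7.82 to 12.5). For Cct2 the same values were 6.49 (4.24 to 9.51) and 9.28 (7.22 to 11.75). A high EpiLC background was not confined to these genes, since the median over all EpiLC gene-end peaks was 1.82, against 1.13 in Naive. Its part in the result was not tested, and no source used here says which control set the local background.

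**Figure D3:**
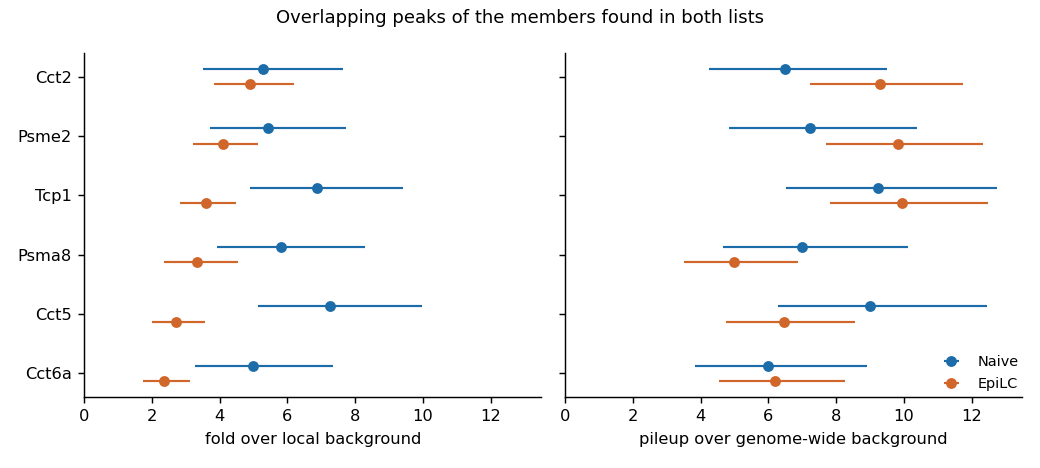
The 6 members with overlapping peaks in both lists, as fold over the local background (left) and as summit pileup over the genome-wide background of the same list (right), with 95% Poisson intervals. On the left all 6 Naive points lie higher, while on the right the intervals of every gene overlap and 4 of 6 EpiLC points lie higher.

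The absence of an EpiLC peak at the other 32 genes is limited by what the list could hold. At the genome-wide background, a pileup of 22 fragments and a fold of 2.73 were the least that reached the lowest p-value in the EpiLC list, and in Naive 14 fragments and a fold of 3.00. At a background 2 times as high the EpiLC limits were 34 fragments and 2.21. The EpiLC backgrounds at genes without a peak are not in the peak list, so signal just below these limits was not detectable. Of the 43 Naive member peaks, 6 (13.95%) overlapped an EpiLC peak, near the 18.5% of all Naive gene-end peaks.

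Summits lay on both sides of transcript starts. The promoter table lists a start for 50 of the 59 members, and Psmd7, Psmb2, Psmb1, Psmb7, Cct4, Psmg2, Psmd3, Psma8 and Psmc3 have no entry. Of 36 Naive summits at members with an entry, 34 lay within 1 kb of the nearest listed start, 18 upstream and 16 downstream. Of these, 30 (88.2%) lay between 50 and 400 bp from it, against 68.2% of all Naive gene-end peaks near a start. Within 50 bp, a much narrower band, there was 1 (2.94%), the second Cct5 peak, against 9.30%. The median distance was 216 bp for the members and 214 bp for all. The 5 EpiLC summits lay between 345 bp before and 357 bp after a start. Chromatin had been sheared to fragments of about 500 bp, so distances of this size are near the resolution of the assay.

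**Figure D4:**
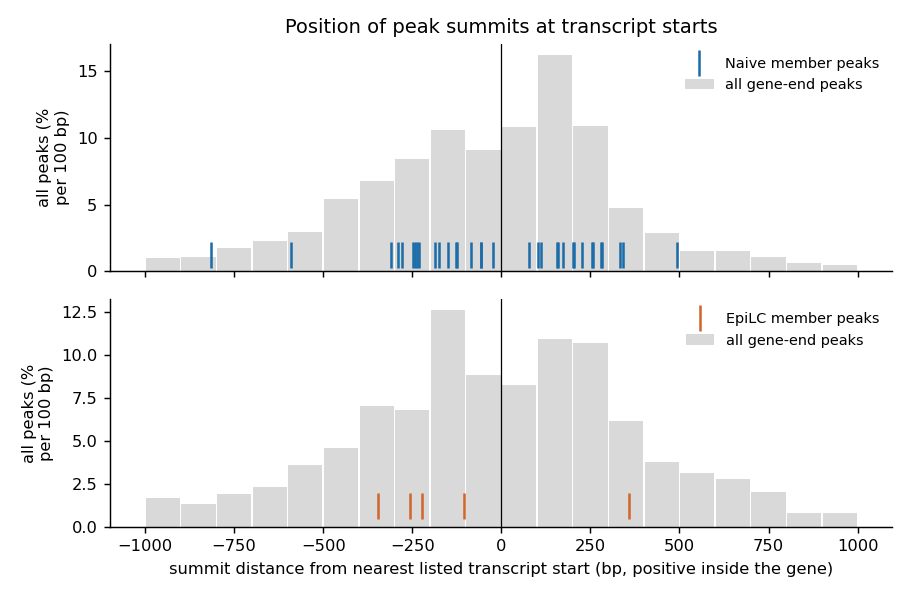
Distance of peak summits from the nearest listed transcript start in bp, positive inside the gene, for member peaks (coloured ticks) over the distribution of all gene-end peaks (grey, percent per 100 bp). Naive member summits lie on both sides of the start, 30 of 34 of them 50 to 400 bp away, and the 5 EpiLC summits lie between -345 and 357 bp.

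At 2 genes with a listed start more than 1 kb inside the gene model, the gene-end rule missed a Naive peak near that start. Both have 2 listed starts, and which of them is used in these cells was not tested. Psma6 has a listed start 14603 bp inside its annotated gene and a Naive peak of 3.75 (2.41 to 5.60) lay 143 bp after it. Psmc2 has one 1472 bp inside, with a Naive peak of 3.25 (2.05 to 4.94) 143 bp before it. Counted within 1 kb of listed starts, these 2 genes gained a peak and Psma3 lost its own. The count was then 32 of 50 members in Naive (64.0%), where 20.6% of all genes with an entry had one, and 5 of 50 in EpiLC (10.0%), against 5.81%. The Naive member peaks closest to the 1 kb limit from inside were the second Tcp1 peak at 816 bp and the Psma3 peak at 801 bp. Among members without a gene-end peak, the closest Naive summits outside it lay 1137 bp from Psmb10, 1329 bp from Psmc2 and 1661 bp from Psmb1.

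Some member peaks lay near the ends of more than 1 protein-coding gene. Of the 43 Naive member peaks, 16 (37.2%) were also within 1 kb of the end of another protein-coding gene, compared with 22.5% of all Naive gene-end peaks. In EpiLC it was 3 of 6, at Cct5, Cct6a and Psme2, compared with 18.3%. Such a peak cannot be assigned to 1 of the genes. Member peaks were picked through their genes, so a peak at more than 1 gene end was more likely to be picked. Among all gene-end peaks each was counted once, so the shares are not like for like and no excess can be read from them. The 8 pseudogenes named after members had no peak at their ends. No share over all pseudogenes is given, so nothing is concluded from this.

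Member promoters were rich in CpG, and the share with a Naive peak exceeded that of all genes in both CpG classes as drawn here. In the 300-base windows of the RefSeq table, the median was 20 CpG for members and 13 for all protein-coding genes, and 25 for the chaperonin. It was 21 at members with a Naive gene-end peak and also 21 at all protein-coding genes with one. A promoter was called CpG-rich at a GC content of at least 55% and an observed over expected CpG ratio of at least 0.6. Of 30 members with such a promoter 22 had a Naive gene-end peak (73.3%), against 31.4% of the 7713 such genes at large. Of the 20 other members 9 had one (45.0%), against 11.03% of 9779. In EpiLC it was 4 of 30 and 1 of 20 members, against 8.41% and 3.36%. Of the 9, Psma2, Psmb5, Psmc1, Psmd1 and Psmg3 had a CpG ratio above 0.6 and missed the class on GC content alone. So did Psmb6, Psmd6 and Psmd8, which had no Naive peak. The classes were chosen after the values were seen, and members and other genes were not matched for CpG within a class. The difference within this class therefore does not set CpG content aside. The 11 members with neither a CpG-rich promoter nor a Naive peak were Psmb4, Psmb6, Psmb8, Psmb9, Psmb10, Psmb11, Psmd6, Psmd8, Psmd10, Psme1 and Psme2b.

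Short motifs were counted on both strands of the same windows, 56 for members and 21263 for all protein-coding genes. The Ets motif CCGGAAG was in 21 member windows (37.5%), against 11.6% of all windows and 23.9% of windows at genes with a Naive gene-end peak. The nuclear respiratory factor core TGCGCA was in 10 (17.9%), against 9.74% of all windows and 16.5% at genes with a Naive peak. Of those 10 windows 9 were at members with a Naive peak, as were 35 of the 56 member windows. The Yy1 motif AAGATGG was in 9 (16.1%), against 6.24% and 9.15%. The antioxidant response core TGANNNNGC, read by the proteasome regulators Nfe2l1 and Nfe2l2, was in 57.1%, against 41.7% and 43.0%. The GC box GGGCGG was in 58.9% of member windows, above the 46.2% of all windows but below the 61.4% at genes with a Naive peak, and CCCC in 91.1%, likewise between 88.2% and 94.1%. The CCAAT box (CCAAT) was in 37.5%, against 38.2% and 40.4%, and CCCTCCC in 12.5%, against 24.9% in both sets. The heat shock core GAANNTTC was in 5.36%, against 7.21% and 6.66%, and TATAAA in 7.14%, against 12.6% and 6.62%. CCCTCCC and CCCC are both C-rich, but an unbroken run of C matches CCCC only. Among member windows, TGCGCA had the widest gap between genes with and without a Naive peak, 25.7% and 4.76%. In the opposite direction, TGANNNNGC was in 54.3% and 61.9%, CCCTCCC in 11.4% and 14.3%, and TATAAA in 2.86% and 14.3%. The remaining motifs were higher at members with a peak, by less. With 35 and 21 windows, no link between a motif and the peaks can be read from this. A match describes the letters and shows no binding.

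Some genes that act with these machines but are not members also had Naive peaks. Of 23 other proteasome genes matched in the table, 10 (43.5%) were in the Naive list, against 19.3% of all protein-coding genes, and 3 (13.0%) in the EpiLC list, against 5.61%. Ubb, a polyubiquitin gene, had a Naive fold of 7.10 (5.13 to 9.61) and an EpiLC fold of 4.22 (3.34 to 5.27). Nfe2l1, the transcription factor that raises proteasome genes when the proteasome is inhibited, had 6.43 (4.46 to 8.99) in Naive alone, and Nfe2l2 had 3.55 and 3.19. The ubiquitin receptor gene Adrm1, the proteasome inhibitor gene Psmf1 and the unfoldase gene Vcp had none.

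Of 26 other folding genes, among them prefoldin, which hands substrates to CCT, and tubulin cofactors, 16 had a Naive peak (61.5%) and 5 an EpiLC peak (19.2%), beside the same 19.3% and 5.61% of all genes. Hspd1 and Hspe1, the genes of the mitochondrial chaperonin, share 1 peak, whose Naive fold was 11.7 (9.08 to 14.9) and whose EpiLC fold was 6.998 (5.70 to 8.504). St13, an Hsp70 cofactor gene, had 8.41 in Naive alone, and Hspa8, the gene of the constitutive Hsp70, had 7.64 and 3.95. Hsp90ab1 had 4.35 and 4.01, and Tbcc 3.66 and 3.77. Hsp90aa1, the gene of the stress-induced Hsp90, had none. Of the prefoldin genes, Pfdn1, Pfdn2 and Pfdn6 had a Naive peak, and Pfdn4, Pfdn5 and Vbp1 had none in either list. Pdcl, Pdcl3, Txndc9, Hsf2, Tbca and Tbcd had none either.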

How the data were processed

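The data were the peak lists of 2 ChIP libraries, 1 per state. Per the submitters' processing notes, the tools were MACS2, Bowtie2, fastp and Picard, without versions or roles, and the build was mm10 (GRCm38). Per the file format, the deposited columns hold the fold enrichment (a ratio over background), the −log10 p and −log10 q, the summit offset and a score that is about 10 times the −log10 q, which was not used. Peaks were deposited down to a −log10 q of 2.02.

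Summit pileup and background were solved from the deposited fold, read as (pileup + 1) / (background + 1), and the Poisson p, within 0.001 on the −log10 scale. A single whole pileup fitted 12132 of 12132 Naive and 3493 of 3494 EpiLC peaks. No source used here gives read totals. The 95% Poisson intervals cover counting error only. The code was tested on simulated data.

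Genes came from RefSeq GRCm38.p6, the build of the lists. The motifs, gene lists and members were chosen with earlier results of these data known. All members may be named; full values were given for members in the EpiLC list and the 12 highest in Naive. The values of 1 gene outside the members are not reported here. The CpG classes and the promoters printed were chosen after the values were seen. The tools were bedtools 2.31.1, pandas 2.3.3, matplotlib 3.10.9, scipy 1.17.1 and numpy 2.4.6 under Python 3.11.15. Alternatives were other windows (500 and 3000 bp), transcript starts, stricter peaks, a shortened Naive list and other overlap rules.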

Additional observations from a re-analysis of the deposited data

How the results depend on the processing

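Windows of 500 or 3000 bp, listed transcript starts, any overlap with the window and a −log10 q of at least 5 left the counts of members within 1.5 times those reported (Naive 32 to 41, EpiLC 5 to 7). At a fold of at least 5, 13 members were left in Naive (median fold 5.44), 0 in EpiLC, 0 in both and 46 in neither. Then 6.83% of all genes had a Naive peak and 0.676% an EpiLC peak. With the Naive list shortened to its 3494 most significant peaks, 9 members had a Naive peak (median fold 5.66) and 49 had one in neither list. The 9 are 15.3% of members, against 5.44% of all genes. Cct6a was among the 13 and the 9 only through its far-end peak. The ratio of Naive to EpiLC at shared members turned from 1.83 to 0.948 with pileup over the genome-wide background, an alternative added after seeing the data. Overlap of at least 50% of the shorter peak kept 6 pairs and summits within 200 bp kept 5. No paired analysis was possible because each state had 1 ChIP library. Depth limits the rest: 19 to 37 fragments at a Naive summit give wide intervals.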
